A study of Mus musculus with 22 samples.

Results

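Immediate early genes are transcribed within minutes of a stimulus, before any new protein is needed, and heat shock genes are switched on by stress that unfolds proteins. The 10 such genes described here were chosen by name and read in every library of the study, 10 of the 43430 genes in its tables. They are the Fos and Jun family genes Fos, Fosb, Jun, Junb and Jund, the early response genes Egr1, Ier2 and Dusp1, and the inducible Hsp70 genes Hspa1a and Hspa1b. Each was compared between mouse thymocytes that lacked the transcription factor E2a and control thymocytes, at 4 and 8 weeks of age. At 8 weeks, Fos, Junb, Hspa1a and Hspa1b rose in knockouts made with Vav Cre. Of these, Fos, Hspa1a and Hspa1b were under 1 FPKM in all controls and entered the test only through libraries in which they were high. None of the 5 genes that could be tested at 4 weeks passed the test, and the other 5 stayed at 1.04 FPKM or less there.

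Fos and Jun family proteins pair through leucine zippers to form AP-1, the transcription factor that couples signals from kinases to gene expression. In thymocytes, AP-1 and Egr1 act downstream of the T cell receptor, and Dusp1 removes phosphate from MAP kinases and so limits the signal. Hspa1a and Hspa1b encode nearly the same Hsp70 chaperone, and heat shock factor 1 drives their transcription through heat shock elements.

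The cells were sorted CD45.1+ thymocytes that carry both CD4 and CD8, a stage called double-positive. E2a is the gene Tcf3, and all mice carried its floxed alleles. Controls were E2aF/F with no Cre named, the Vav knockouts were VavCre E2aF/F, whose Cre is active across blood cells, and the Lck knockouts were LckCre E2aF/F, whose Cre is active in developing T cells. At 4 weeks of age there were 3 control and 3 knockout libraries for Vav and 3 of each for Lck, and at 8 weeks 3 controls, 3 Vav knockouts and 4 transplanted Vav knockouts. The transplanted mice were VavCre E2aF/F, were given bone marrow of wild-type mice after sublethal irradiation and were studied 4 weeks after transplantation. Whose cells carried CD45.1 in those mice is not stated in the labels. The labels call the libraries replicates and name no animals, so each p-value reflects spread among libraries, which may be technical.

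Values are FPKM, read fragments scaled to gene length and library depth, and log2 changes are differences of log2(FPKM + 1), tested with limma over all genes of a table and called at an adjusted p under 0.05. The depth inferred from the lowest values was 5.52 to 37.4 M reads (M, 1e6). Tcf3 had 6.39 to 8.22 FPKM in the 9 control libraries and 1.15 to 2.32 FPKM in the 13 others, the transplanted ones included. All 14 markers of the double-positive stage had a mean of at least 1 FPKM in every group. Of 5934 genes with at least 5 FPKM in every Vav control at 4 weeks, 8 to 18 were listed at 0 in the 8-week knockouts, 10 to 26 in the transplanted libraries and 0 to 4 in all others. A single value of 0 at 8 weeks is therefore given as listed. In these bulk samples, fewer cells of a type and less RNA per cell cannot be told apart.

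The 4 genes that rose at 8 weeks lie at 4 places of 3 chromosomes in mm10. Fos (ENSMUSG00000021250) spans 85473890 to 85477273 on the plus strand of chromosome 12. Junb (ENSMUSG00000052837) spans 84974484 to 84978718 on the minus strand of chromosome 8, and its end overlaps Prdx2 on the opposite strand. Hspa1a (ENSMUSG00000091971, 34969190 to 34972156) and Hspa1b (ENSMUSG00000090877, 34956436 to 34959238) are neighbours on the minus strand of chromosome 17, each with 1 exon. The 250 bases before the RefSeq start (GRCm38.p6) are shown for these 4 genes because they are the ones that rose. The windows are chr12:85473640-85473889 (plus) for Fos, chr8:84978749-84978998 (minus) for Junb, chr17:34972157-34972406 (minus) for Hspa1a and chr17:34959239-34959488 (minus) for Hspa1b. Each reads 5′ to 3′ along its gene. Capitals mark GAANNTTC (a heat shock element core), CAGNTG (an E-box of the kind E proteins bind) and TATAAA (the TATA box).
Fos: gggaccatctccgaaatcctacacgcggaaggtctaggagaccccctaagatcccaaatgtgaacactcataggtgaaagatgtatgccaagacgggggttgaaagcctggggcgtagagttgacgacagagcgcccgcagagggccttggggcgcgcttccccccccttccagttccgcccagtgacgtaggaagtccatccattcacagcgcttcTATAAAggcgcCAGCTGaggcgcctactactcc
Junb: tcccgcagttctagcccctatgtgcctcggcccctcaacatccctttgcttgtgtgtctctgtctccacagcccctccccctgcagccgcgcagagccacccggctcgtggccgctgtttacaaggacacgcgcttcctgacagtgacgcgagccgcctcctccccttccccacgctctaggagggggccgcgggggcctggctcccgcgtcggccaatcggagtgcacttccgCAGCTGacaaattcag
Hspa1a: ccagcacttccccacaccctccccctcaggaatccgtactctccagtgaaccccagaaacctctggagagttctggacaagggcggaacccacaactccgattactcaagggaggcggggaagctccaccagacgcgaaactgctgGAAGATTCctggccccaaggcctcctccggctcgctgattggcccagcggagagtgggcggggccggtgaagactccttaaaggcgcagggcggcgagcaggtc
Hspa1b: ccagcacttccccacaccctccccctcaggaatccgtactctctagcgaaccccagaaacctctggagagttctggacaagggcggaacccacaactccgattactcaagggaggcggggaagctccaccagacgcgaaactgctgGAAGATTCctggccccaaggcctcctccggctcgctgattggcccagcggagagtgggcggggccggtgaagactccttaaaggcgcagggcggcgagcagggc

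Hspa1a and Hspa1b are alike at 247 of the 250 positions (98.8%), and each window holds 1 GAANNTTC, 104 bases before the start by its first base (position -104). GAANNTTC, read on both strands, was in 6.69% of all 32851 promoter windows of that length. The Fos window holds TATAAA at -33 and CAGNTG at -22, and the Junb window holds CAGNTG at -16. CAGNTG was also in the windows of Fosb, Jun and Jund, which were not among the genes that rose. The Jund window ends at 70697738, well before the annotated gene start at 70698949, so it may not be the promoter of that gene. CAGNTG was in 44.8% and TATAAA, read on the gene's strand only, in 7.59% of all windows. TGACGTCA, the cyclic AMP response element, was in 1.55% of windows and in the Dusp1 window at -143. Jun had GAANNTTC at -128. The AP-1 element TGANTCA and the CArG box of serum response factor were found in none of the 8 windows searched (6.75% and 1.47% of all windows), which says only that these letters are not in these 250 bases. Ier2 was missing from the promoter source and Egr1 was left out of the search. The motif results therefore say nothing about either gene, and an element near Egr1 was not looked for.

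The first comparison asked how the 10 genes stood at 8 weeks in Vav knockout against control thymocytes. Of the 9 genes tested, 4 rose and 0 fell, and the other 5 did not pass. Of all 11632 genes tested, 4.65% were called higher and 9.1% either way. Fos, Hspa1a and Hspa1b reached 1 FPKM in 0 of the 3 controls and entered the test only through the libraries in which they were high, so they had to differ, and the count of 4 is given as a description. Fosb, with 1 library at 1 FPKM or more, was not tested.

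Fos, the partner of the Jun proteins that gave the family its name, had 9.77, 8.78 and 16.4 FPKM in the 3 knockouts at 8 weeks. The controls had 0.365, 0.169 and 0.554 FPKM, a range far under the lowest knockout. The means were 11.7 ± 4.15 and 0.363 ± 0.192 FPKM (SD, n = 3 each), 32.1-fold apart. On the depths inferred, the knockout values stand for about 297 to 721 reads and the control values for 4 to 27. The log2 change was 3.18 (SE 0.444, adjusted p = 0.00347 by limma, higher in 3 of 3 libraries). It ranked 50 by size among all genes tested.

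Fosb, a second Fos family gene, stood much lower, at 0.543, 0.278 and 1.46 FPKM in the knockouts. The controls were at 0.0607, 0.148 and 0.101 FPKM, all under the lowest knockout. The ratio of means was 7.37. Fitted without the filter on low values, its log2 change of 0.62 (SE 0.214, adjusted p = 0.168 by limma) did not pass.

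Junb, a Jun family member that is abundant in lymphocytes, had 27.2, 19.3 and 29.6 FPKM in the knockouts and 11, 11.7 and 9.51 FPKM in the controls. The 2 groups did not overlap, and the means of 25.4 ± 5.37 and 10.7 ± 1.11 FPKM (SD, n = 3 each) were 2.36-fold apart. The log2 change was 1.15 (SE 0.279, adjusted p = 0.0356 by limma, higher in 3 of 3 libraries). The call ended without the filter (adjusted p = 0.0682) and without any 1 of the 6 knockout and control libraries (changes of 1.03 to 1.33, highest adjusted p = 0.132 without control replicate 3). Prdx2, a peroxidase gene whose end overlaps that of Junb on the opposite strand, ranged from 18 to 20.8 FPKM among knockouts and from 12.3 to 13.5 FPKM among controls, and its log2 change of 0.56 (SE 0.277, adjusted p = 0.21 by limma) did not pass. No source used here says whether reads were counted by strand, so the part of Prdx2 reads in the Junb values was not tested.

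Jun, the first Jun family gene, differed between libraries of 1 group more than between groups. The knockouts had 1.57, 14.1 and 1.08 FPKM and the controls 1.13, 0.463 and 0.788 FPKM. Only knockout replicate 2 stood clearly apart, and the log2 change of 1.29 (SE 1.15, adjusted p = 0.476 by limma) came to 0.39 without it. Jund, the family member that resting cells express steadily, had 18, 17.2 and 21.9 FPKM against 29.7, 26.5 and 26.6 FPKM in the controls. All 3 knockouts were under all 3 controls, with a log2 change of -0.52 (SE 0.308, adjusted p = 0.288 by limma).

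Among the other early response genes, Ier2, a small nuclear protein, had 21, 22.8 and 17.6 FPKM in the knockouts and 13.2, 13.3 and 11.8 FPKM in the controls, and the groups did not overlap. Its log2 change of 0.64 (SE 0.393, adjusted p = 0.305 by limma) did not pass. Dusp1, the MAP kinase phosphatase, had 4.36, 5.43 and 6.04 FPKM against 3.41, 3.23 and 3.39 FPKM, again with no overlap and with a change of 0.52 (SE 0.259, adjusted p = 0.209). Egr1, a zinc finger factor of the T cell receptor response, went the other way. It had 5.15, 8.42 and 2.74 FPKM in the knockouts and 12.5, 12.9 and 10.3 FPKM in the controls, a change of -1.10 (SE 0.458, adjusted p = 0.15) that did not pass either.

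The Hsp70 genes differed most. Hspa1b had 31.3, 33.6 and 38.3 FPKM in the knockouts and 0.366, 0.165 and 0.254 FPKM in the controls. The knockouts lay close to each other (34.4 ± 3.61 FPKM, SD, n = 3) and the controls were near 0 (0.261 ± 0.101 FPKM), a ratio of means of 132. The log2 change was 4.81 (SE 0.979, adjusted p = 0.019 by limma, higher in 3 of 3 libraries), which ranked 10 by size among all genes tested.

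Hspa1a had 14, 16 and 15.8 FPKM in the knockouts (15.3 ± 1.06, SD, n = 3) and 0.0384, 0.0622 and 0.032 FPKM in the controls, about 2 reads in each. With so few control reads no ratio is given. The log2 change of 3.96 (SE 0.777, adjusted p = 0.0166 by limma, higher in 3 of 3 libraries) depends on the pseudocount and was 6.74 with a pseudocount of 0.1. The transcripts of the 2 genes share 1716 words of 50 bases, 58.8% of those of Hspa1a and 62.3% of those of Hspa1b, so how reads were split between them is uncertain. Their sum depends little on that split, since the exonic lengths are close (2967 and 2803 bases). Reads that match both genes and were left uncounted would be missing from it. The sum was 45.3, 49.6 and 54.1 FPKM in the knockouts and 0.404, 0.227 and 0.286 FPKM in the controls.

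The limma calls of both Hsp70 genes ended when any 1 of the 6 knockout and control libraries was left out, while the changes stayed at 3.93 to 4.01 for Hspa1a (adjusted p = 0.0546 to 0.0786) and 4.73 to 4.87 for Hspa1b (adjusted p = 0.0601 to 0.0888). The Fos call held in all of these. Each of these fits took its spread from the transplanted libraries as well. The SD of Hspa1a was 7.19 FPKM there, 1.06 FPKM in the knockouts and 0.0159 FPKM in the controls. With only the 2 groups compared, both Hsp70 genes were called, as were 45.7% of all 10958 genes tested. In that fit both passed the filter through the knockouts alone, so these calls are a description. Why the calls ended when a library was left out was not tested. Counting only whether libraries overlapped, 7 of the 10 genes were higher and 2 lower in all knockouts than in all controls at 8 weeks, and Jun was the exception. Such gaps were common, in 28.9% of all genes tested upward and 28.7% downward.

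**Figure D1:**
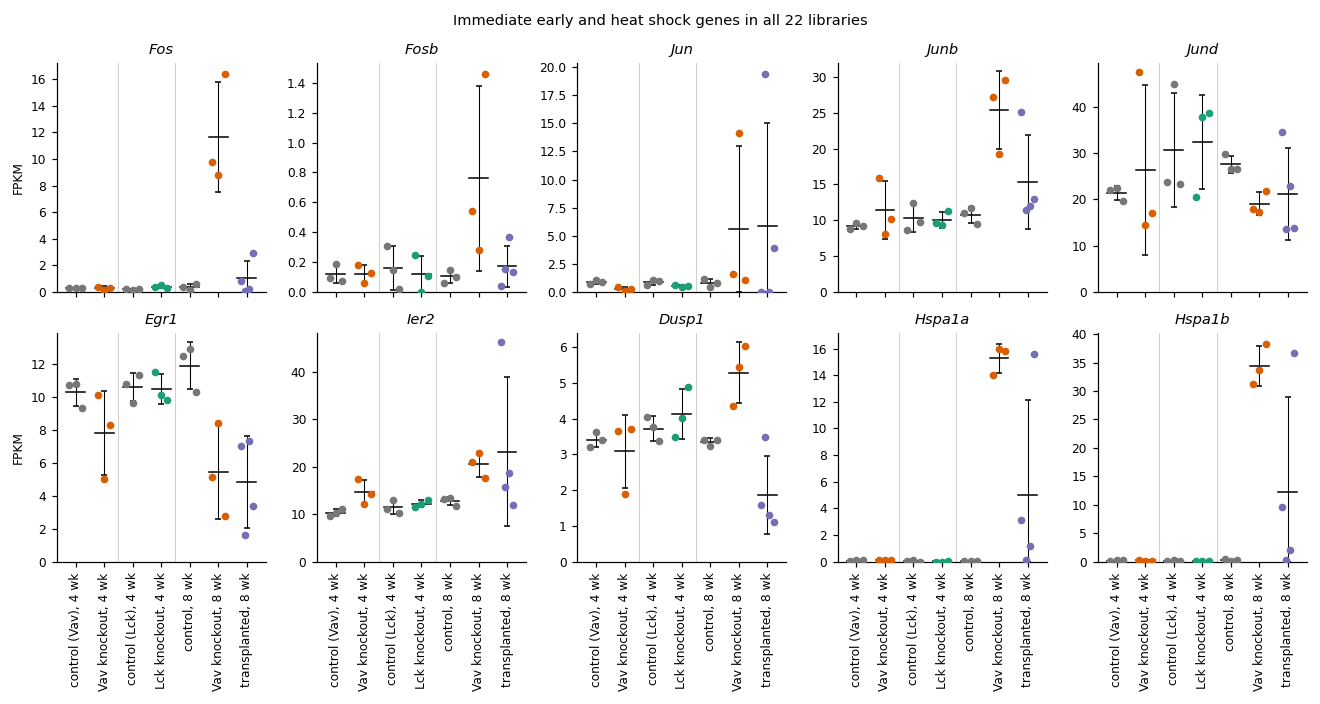
FPKM (vertical axis, linear, its own scale in each panel) of the 10 genes in the 22 libraries, with 1 point per library and the mean ± SD of each of the 7 groups as bars. Fos, Hspa1a and Hspa1b are near 0 in all groups but the 8-week Vav knockouts and some transplanted libraries.

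The next comparison asked whether the same genes were raised in Vav knockouts that had received wild-type marrow. Of the 9 genes tested, 0 were called against the same 3 controls (9.19% of all 11632 genes were called). For Jun, Junb, Jund, Ier2, Dusp1 and both Hsp70 genes, the SD among the transplanted libraries was larger than among the controls or the other knockouts. At an unadjusted p under 0.05, 4 of the 9 passed in limma, namely Egr1, Dusp1, Hspa1a and Hspa1b. So did 3028 of all 11632 genes, and Hspa1a and Hspa1b reached 1 FPKM in 0 of the controls. This comparison shares its controls with the one above.

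Hspa1b had 9.62, 0.346, 2.07 and 36.6 FPKM in transplanted replicates 1 to 4. Replicate 4 lay within the range of the untransplanted knockouts and replicate 2 within that of the controls. Hspa1a had 3.11, 0.12, 1.16 and 15.6 FPKM in the same order, all above the highest control. The log2 changes against control were 2.34 (SE 0.916, adjusted p = 0.145 by limma) for Hspa1b and 1.78 (SE 0.727, adjusted p = 0.159) for Hspa1a. The summed level of both was 12.7, 0.466, 3.22 and 52.2 FPKM.

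Fos was low in the transplanted libraries, at 0.789, 0.0818, 0.236 and 2.95 FPKM, and the libraries stood in the same order as for Hspa1a, with replicate 4 highest and replicate 2 lowest. Without replicate 4, the log2 change of Fos against control went from 0.37 (SE 0.415, adjusted p = 0.608 by limma) to -0.02. Fosb was at 0.0391 to 0.366 FPKM.

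Junb had 25.1, 11.4, 12 and 12.9 FPKM. Replicate 1 was at the level of the untransplanted knockouts and the other three at or just above that of the controls. Ier2 was also highest in replicate 1, at 46.2 FPKM against 15.6, 18.7 and 12 FPKM. Prdx2, beside Junb, was highest there as well, at 29.3 FPKM against 10.8 to 18.7 FPKM in the others. Jun was listed at 0 in replicates 1 and 3 and had 19.4 FPKM in replicate 2 and 3.9 FPKM in replicate 4. Jund ranged from 13.5 to 34.6 FPKM.

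Egr1 had 7.04, 1.62, 7.31 and 3.4 FPKM in the transplanted libraries, all under the lowest control (10.3 FPKM). The log2 change was -1.29 (SE 0.428, adjusted p = 0.0957 by limma). Dusp1 had 1.58, 3.48, 1.3 and 1.1 FPKM, with 3 of 4 libraries under all controls and a change of -0.67 (SE 0.242, adjusted p = 0.12). Hspa1a and Egr1 were the 2 genes of the 10 whose transplanted and control libraries did not overlap, 1 each way, as did 24.4% of all genes tested.

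Set directly against the untransplanted knockouts, the transplanted libraries gave 0 calls among the 9 genes (5 at an unadjusted p under 0.05) and 0 (0%) among all 11632 genes, with 681 genes under an unadjusted p of 0.05 in limma. Fos had the fifth largest change of all genes, -2.80 (SE 0.415, unadjusted p = 7.02e-05, adjusted p = 0.212 by limma), and its mean was 11.5-fold lower. All 4 transplanted libraries were under all 3 untransplanted ones. Without transplanted replicate 4 the change was -3.19 with an adjusted p of 0.0224 by limma. Fos reached 1 FPKM only in the untransplanted knockouts and in transplanted replicate 4. It therefore entered the test through libraries in which it was high, and without replicate 4 through the untransplanted knockouts alone. Its rank and p-values here are given as a description. Dusp1 was the other gene with no overlap (5.99% of all genes tested had none), with a change of -1.19 (SE 0.242, adjusted p = 0.469), and without transplanted replicate 2 the change of Dusp1 was -1.43 with an adjusted p of 0.0158. Hspa1b (-2.47, adjusted p = 0.815), Hspa1a (-2.18, adjusted p = 0.786) and Junb (-0.74, adjusted p = 0.797) had lower means, but 1 transplanted library of each lay among the knockouts.

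**Figure D2:**
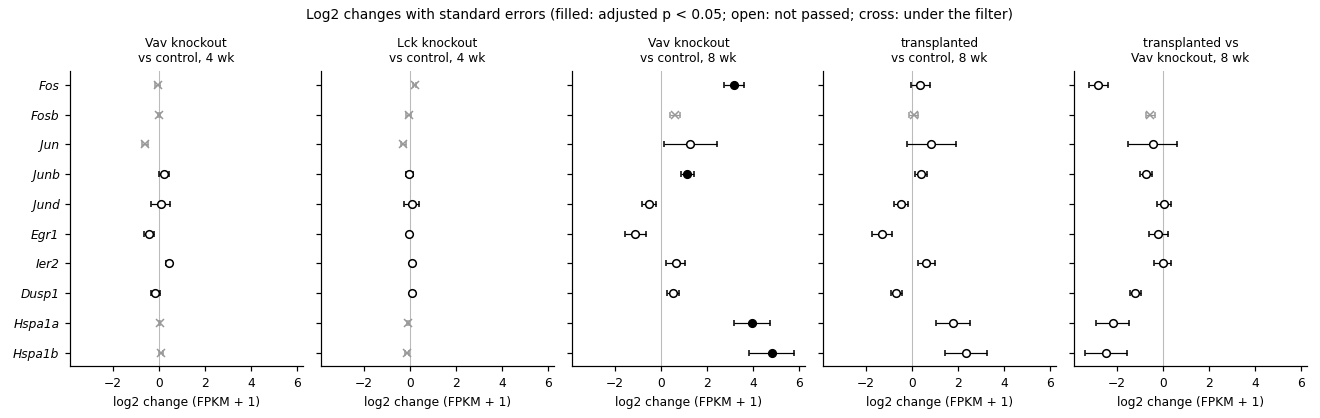
Log2 changes of FPKM + 1 (horizontal axis) with standard errors for the 10 genes in 5 comparisons. Filled points passed an adjusted p of 0.05 in limma, open points did not, and grey crosses are genes under the filter, fitted without it. The 4 filled points are Fos, Junb, Hspa1a and Hspa1b in the Vav knockout at 8 weeks.

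At 4 weeks, the question was whether the loss of E2a through Vav or Lck Cre had moved these genes in younger mice. Junb, Jund, Egr1, Ier2 and Dusp1 could be tested, and 0 of the 5 were called in either knockout by limma (at an unadjusted p under 0.05, 1 for Vav and 0 for Lck). Of all genes tested, 13.7% were called for Vav and 1% for Lck. At an unadjusted p under 0.05 in limma, 3239 of 10828 genes passed for Vav and 1503 of 10946 for Lck. The other 5 genes did not reach 1 FPKM in 3 libraries.

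Fos had 0.38, 0.103 and 0.315 FPKM in the Vav knockouts at 4 weeks and 0.315, 0.316 and 0.287 FPKM in their controls, which overlapped. In the Lck knockouts it had 0.345, 0.501 and 0.317 FPKM, all above the Lck controls with 0.192, 0.168 and 0.203 FPKM. That difference of 0.22 (SE 0.0594) on the log2 scale did not pass when fitted without the filter (adjusted p = 0.312 by limma). Hspa1a was at 0 to 0.124 FPKM and Hspa1b at 0.0209 to 0.318 FPKM in the 12 libraries of 4-week mice, with overlap between knockouts and controls for both Cre lines. Fosb was at 0 to 0.309 FPKM.

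Jun was lower in all 3 Vav knockouts, at 0.453, 0.0705 and 0.255 FPKM, than in their controls, at 0.699, 1.04 and 0.904 FPKM. It was also lower in the Lck knockouts, at 0.563, 0.457 and 0.557 FPKM, than in the Lck controls, at 0.586, 1.04 and 0.92 FPKM. Without the filter neither passed in limma (-0.59, adjusted p = 0.0763 for Vav and -0.27, adjusted p = 0.55 for Lck). Ier2 had 17.4, 12.2 and 14.3 FPKM in the Vav knockouts, all above the controls at 9.51, 10.3 and 11 FPKM, a change of 0.46 (SE 0.126, adjusted p = 0.0601).

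The remaining changes at 4 weeks were within the spread of the libraries. For Vav they were 0.23 for Junb, 0.09 for Jund, -0.40 for Egr1 and -0.14 for Dusp1, and for Lck they lay between -0.01 and 0.11 for all 5 genes. The Jund value for Vav rests on 1 library of 47.5 FPKM beside 14.4 and 17.1 FPKM, and without it the change was -0.43 (adjusted p = 0.0483 by limma). In each Cre line 1 gene was higher and 1 lower with no overlap of libraries, Ier2 and Jun for Vav and Fos and Jun for Lck. Among all genes, 37.8% for Vav and 20% for Lck had no overlap. The difference between the Vav and the Lck effect was tested for the same 5 genes and was called for 0 of them (0 also at an unadjusted p under 0.05). Of all 10541 genes, 3.3% were called and 1779 were under an unadjusted p of 0.05 in limma. The largest value among the 5 was -0.39 for Egr1 (SE 0.252, adjusted p = 0.5 by limma).

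The effect of the Vav knockout at 8 weeks was also tested against its effect at 4 weeks, each relative to the controls of its own table. Among the 5 genes that pass the filter at both ages, 0 were called (2 at an unadjusted p under 0.05), where 18.2% of all genes were. Of all 10489 genes tested, 3482 were under an unadjusted p of 0.05 in limma. Junb came nearest, with a difference of 0.92 (SE 0.294, adjusted p = 0.0533 by limma), followed by Dusp1 at 0.67 (SE 0.24, adjusted p = 0.079). Fos, Hspa1a and Hspa1b are under 1 FPKM at 4 weeks and enter only without the filter. There the differences were 3.23 for Fos (SE 0.293, adjusted p = 0.00142), 3.92 for Hspa1a (SE 0.113, adjusted p = 8.34e-07) and 4.72 for Hspa1b (SE 0.16, adjusted p = 1.97e-06), 3 calls among 10 genes with 5.55% of all genes called. The 8-week knockouts stood above every 4-week library in each of these genes. This fit leaves out the transplanted libraries and takes in low 4-week values, which spread little on this scale. For Hspa1a its SE is far under that of the 8-week effect alone (0.817 without the filter, transplanted libraries included). These p-values therefore overstate precision, and the genes were high at 8 weeks only, so the differences are given as a description.

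Other genes of these pathways were taken from lists chosen by their roles. Of 25 tested immediate early genes outside the 10, 2 rose and 4 fell in the Vav knockouts at 8 weeks (4.65% of all genes tested were called higher and 4.45% lower), with a median log2 change of -0.11 (all genes tested had a median of -0.005). Myc, the growth-promoting factor, rose by 3.16, from 0.822 ± 0.11 to 15.4 ± 1.45 FPKM (SD, n = 3 each). Ppp1r15a, a phosphatase subunit of the stress response, rose by 1.26, with 4.8, 4.47 and 7.47 FPKM in the knockouts and 1.68, 1.74 and 1.66 FPKM in the controls. Cd69 (-2.78), an activation antigen, Egr3 (-1.50) and Egr2 (-0.96), factors of the Egr1 family, and Btg2 (-1.44), an inhibitor of proliferation, fell. At 4 weeks Klf2 (1.52), Myc (1.51) and Ier5 (0.57) led 5 rises of 25, and 0 fell, where 7.63% of all genes tested were called higher and 6.08% lower.

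The list of T cell receptor response genes shares Cd69, Egr2, Egr3 and Nr4a1 with the one before. Of 16 tested at 8 weeks, 0 rose and 4 fell, namely Cd69, Egr3, Egr2 and Cd6 (-1.18), with a median of -0.39. Nr4a1 was not called, with means of 24.4 FPKM in the knockouts and 21 FPKM in the controls. Of 8 tested AP-1 partners, Batf fell, from 4.84 ± 0.259 to 1.55 ± 0.712 FPKM (log2 change -1.24), and 7 did not pass. Among 14 phosphatases and feedback inhibitors of MAP kinases, Dusp10 rose (1.11), and Spred1 (-2.38) and Dusp6 (-1.89) fell. Spred1 went from 4.75 ± 0.206 to 0.102 ± 0.0337 FPKM. Of 25 tested MAP kinase and serum response factor genes, 0 were called by limma at 8 weeks, with a median of -0.22. At an unadjusted p under 0.05 in limma, 7 of the 25 passed, and 3417 of all 11632 genes.

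Chaperone genes other than Hspa1a and Hspa1b had smaller changes than those genes. Of 24 tested at 8 weeks, 3 rose and 0 fell, against 4.65% of all genes called higher, with a median log2 change of 0.52. The change was positive for 18 of 24, and for 49.6% of all genes tested. Bag3, a co-chaperone of Hsp70, had 4.89, 13.6 and 9.97 FPKM in the knockouts and 1.45, 0.926 and 1.19 FPKM in the controls, a change of 2.17. St13, another Hsp70 co-chaperone, rose by 0.96, and Hsf1, which encodes heat shock factor 1, rose by 0.54, from 36.4 ± 0.466 to 53.3 ± 2.9 FPKM. Dnajb1 (-0.42, adjusted p = 0.265 by limma), an Hsp40 partner of Hsp70, and Hspa8 (0.38, adjusted p = 0.508), the constitutive Hsp70 gene, did not pass.

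At 4 weeks 7 of the 24 chaperone genes rose in the Vav knockouts (7.63% of all genes were called higher), at an age at which Hspa1a and Hspa1b were near 0. Bag3 rose by 1.09, Hspe1 by 0.80 and Hspd1 by 0.77, the last 2 being partners in the mitochondrial folding chamber. The median was 0.23. The counts of rises at 4 and 8 weeks are not compared, since the median SE of all genes was 0.0849 and 0.216. In the test of 8 minus 4 weeks, 6 of the 24 were called higher and 1 lower (8.87% and 9.37% of all genes). Hspd1 and Hspe1 were among those called higher. In the Lck knockouts 0 of 24 were called by limma (6 at an unadjusted p under 0.05, as were 1503 of all 10946 genes). The Vav effect exceeded the Lck effect for Bag3 (difference 0.93, adjusted p = 0.0129 by limma). In the transplanted mice Bag3 (1.96) and Hsf1 (0.55) rose against control. Of 14 tested endoplasmic reticulum stress genes, Atf4 (0.57) rose and Xbp1 (-2.04) fell at 8 weeks.

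**Figure D3:**
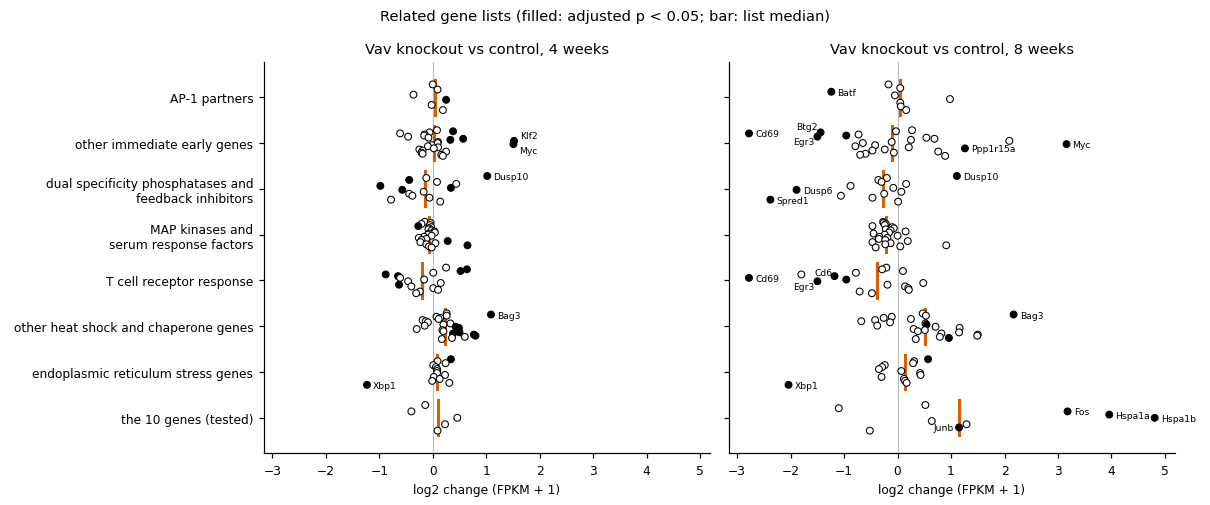
Log2 changes of FPKM + 1 (horizontal axis) of single genes in 7 related lists and of the tested genes among the 10, in the Vav knockout at 4 and 8 weeks. Each point is a gene, filled where the adjusted p is under 0.05 in limma, and each bar is a list's median. Fos, Hspa1a and Hspa1b lie to the right of nearly all other points at 8 weeks, with Myc beside Fos.

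Likeness was measured as Pearson's r of log2(FPKM + 1) over the 22 libraries, after subtracting the control mean of each table, among 10449 genes. The libraries share tables and groups, and the 3 Vav knockouts at 8 weeks lie far from the rest, so r is a description. Fos was most like Ppp1r15a (r = 0.97), followed by Slc16a1 (0.86), a lactate transporter, Wdr70 (0.86), Supv3l1 (0.86) and Ddx10 (0.85), both RNA helicases. Ppp1r15a had 0.96 to 3.18 FPKM in the transplanted libraries and 1.38 to 1.91 FPKM in the 12 libraries of 4-week mice. Among the 10 genes, Fos was most like Hspa1a (0.91), Hspa1b (0.90), Junb (0.77) and Fosb (0.76), and least like Jund (-0.33) and Egr1 (-0.47). Hspa1a was most like Ice2 (0.91), Mettl2 (0.91), Trim13 (0.90), Fgr (0.90) and Azin1 (0.90) outside the 10.

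**Figure D4:**
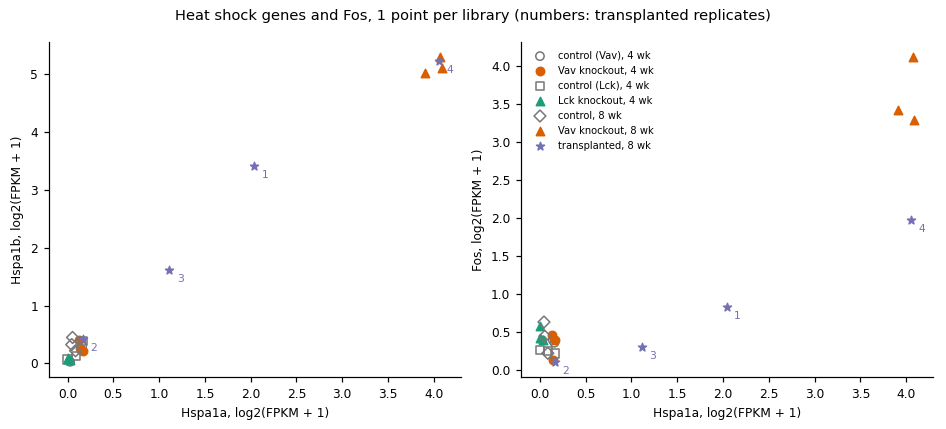
Hspa1b (left) and Fos (right) against Hspa1a, each as log2(FPKM + 1), with 1 point per library and the transplanted libraries numbered by replicate. Hspa1a and Hspa1b are high in the same libraries, and transplanted replicate 4 joins the 8-week knockouts for both Hsp70 genes but not for Fos.

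Levels of markers of other cells were summed for each library at 8 weeks. The summed level of 12 macrophage and granulocyte markers was 2.51 to 5.97 FPKM in the controls, 4.94 to 12.1 FPKM in the knockouts, with S100a8 and S100a9 at 0, and 4.68 to 28.7 FPKM in the transplanted libraries. Both knockout groups overlapped the controls, and 0 of 3 tested markers were called. For 8 dendritic cell markers it was 2.1 to 2.37, 5.01 to 8.65 and 2.95 to 5.34 FPKM, with Xcr1, Clec9a and Batf3 at 0 in the controls. H2-Ab1, an MHC class II gene, was called higher and made up most of that difference (0.822 FPKM in controls, 5 FPKM in knockouts and 2.54 FPKM in transplanted mice, as means), while Cd74, the other tested marker, had 1.33, 1.25 and 0.953 FPKM and was not called. For 12 stromal and endothelial markers it was 9.07 to 9.83, 15.6 to 18.2 and 12.6 to 18.2 FPKM, with Krt5 at 0 in both knockout groups. Of 3 tested, only Pecam1, an endothelial and leukocyte adhesion molecule, was called in both comparisons (7.46, 12.9 and 11.5 FPKM), and the epithelial marker Epcam had 1.23, 0.567 and 0.648 FPKM. For 6 erythroid markers it was 14.2 to 31.9, 3.72 to 16.7 and 29.2 to 72.9 FPKM, overlapping the controls, with 0 of 3 called. Of 7 B cell markers, Ighm alone was tested, and it fell. The sum of the 14 double-positive stage markers was 5160 to 5540 FPKM in the controls, 2710 to 2950 FPKM after Vav deletion and 1750 to 3980 FPKM after transplantation, with Rag1 and Rag2 called lower in both. The part of these differences in the results was not tested.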

How the data were processed

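Total RNA of sorted thymocytes was extracted (RNeasy mini kits) and libraries were prepared (NuGEN Ovation Ultralow), per the labels' protocols. FPKM values per gene were deposited by the authors in 3 tables. The submitters' processing notes name Trimmomatic 0.33, STAR, HTSeq 0.6.1, DESeq2 and mm10, without a role or order. Gene lengths and the use of strand are not given in the sources used here.

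Of 43430 genes, 42462 were matched to a symbol, and 0 columns were left unused. Low values were whole multiples of 1 read (tolerance 0.03) for 49.1% to 57.5%, too few to recover counts, so count tests were not run. log2(FPKM + 1) was tested with limma 3.58.1 (trend, Benjamini-Hochberg) in R 4.3.3 and tested on simulated data. This scale makes changes of low genes look smaller. A gene needed 1 FPKM in at least 3 libraries of each table. The 3 comparisons at 8 weeks used 1 fit of 10 libraries. Differences of effects were interactions over 12 libraries, in which an offset between tables cancels.

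The 10 genes and the 13 lists were chosen with earlier results of these data known. Named genes were the 10, Tcf3, up to 3 called genes each way per list with the largest change, and the 5 most like Fos and Hspa1a. Egr2, Nr4a1, Dnajb1, Hspa8 and the genes on opposite strands were added after their values were seen. Promoters came from RefSeq GRCm38.p6, used for 8 of the 10 genes. Alternatives were other pseudocounts, filters, scalings, variances, library weights, a replicate block and leaving out each library.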

Additional observations from a re-analysis of the deposited data

Results flagged for a closer look

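Junb in transplanted replicate 1, at 25.1 FPKM, lay far from the other 3 transplanted libraries (11.4 to 12.9 FPKM) for the range of its group. The 10 genes were checked in this group alone, the only one of 4 libraries. Chance marks about 1 in 20 such checks and 10 were made, so a single mark can easily come from chance.

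The effect of the Vav knockout differed between 8 and 4 weeks, by a test of the difference itself, for Fos (3.23), Hspa1a (3.92) and Hspa1b (4.72) on the log2 scale. These come from the limma fit without the filter on low values, since each of these genes was under 1 FPKM at 4 weeks. That fit takes its spread partly from such low values, and the genes were high at 8 weeks only. The differences are therefore a description.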

How the results depend on the processing

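Over the alternatives, changes of single genes stayed on their side of the threshold in 859 of 909 values, gained a call in 29 and lost it in 20. The sign differed from the reported one in 35 values, all of genes not called in the report, and 1 of these was called the other way: Jund for Vav at 4 weeks (0.09 as reported, -0.43 with an adjusted p of 0.0483 without knockout replicate 1, and -0.43 to 0.40 over all libraries left out). Fos for Vav at 8 weeks was called in all 18 alternatives (2.92 to 4.70, highest adjusted p = 0.0329 by limma) and with the replicate block. Since Fos reached 1 FPKM in 0 of the controls, these calls describe the same difference and are not independent support.

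The number of the 10 genes called moved as follows. For Vav at 8 weeks, against 4, it was 8 (6 higher, 2 lower) with only the 2 groups compared, where 45.7% of all genes were called, 8 with library weights (49.6% of all genes) and 1 to 5 when a library was left out. For the transplanted against control it was 4 with library weights (26.5% of all genes) and 0 to 2 without a library. For the transplanted against the untransplanted it was 0 to 1 without a library. For Vav at 4 weeks it was 1 with library weights (20.6% of all genes) and 0 to 1 without a library, and for Lck and for Vav minus Lck 0 throughout. For 8 minus 4 weeks it was 3 with no filter, 1 with a mean of 5 FPKM, 1 with quantile normalization, 1 with library weights and 0 to 1 without a library. The cause was not tested.

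The labels do not say that replicate numbers pair the libraries. With 3 or 4 libraries in a group, correlations cannot exclude such pairing. Over 15 same-numbered pairs the correlation of deviations was -0.11 to 0.18, with 2 above 0.1. With a replicate block, 3 genes were called for Vav at 8 weeks (Junb lost, adjusted p = 0.0677) and 0 in every other comparison. The block leaves transplanted replicate 4, which has no partner, without weight.

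Scaling to a common sum shifted the median of all genes by -0.121 for Vav at 8 weeks, and changed the share of higher calls among all genes from 55.7% to 37.7% for Vav at 4 weeks, from 20% to 6.38% for Lck and from 48.6% to 32.3% for 8 minus 4 weeks. Depth limits the low genes: Hspa1a had about 2 reads in each 8-week control.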
